A study of Caenorhabditis elegans with 8 samples.

Results

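The comparison of P0 with untreated wild type worms covers 4 of the 16 RNA-seq libraries of a study of Caenorhabditis elegans under mitochondrial stress. The exposed worms were Bristol wild type animals grown to L4, the last larval stage, at 22 °C on agar with 1.92 µM antimycin A and labelled P0 (2 replicate libraries). The untreated worms were Bristol wild type animals of the same stage and temperature without the drug (2 replicate libraries). All transcripts listed in the count table of these 4 libraries were taken, 13556 of the 14396 listed for the whole series, and 12498 of them had enough counts to be tested. The RNA was total RNA of whole bodies, so a transcript can differ because cells of a type are fewer or because each holds less of it, and these cannot be told apart. The growth conditions describe exposure from the egg, while the description of the series has it begin at L1. Further wild type worms labelled F1 and F2, on the same dose, and worms labelled damt-1, on that dose or untreated, entered the fit and are used at the end. Both libraries of a group carry only a replicate number, so p-values measure the spread between these libraries, which may be technical.

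Antimycin A binds the quinone reduction site of complex III, the cytochrome bc1 complex, and stops electrons from passing from ubiquinol to cytochrome c. The block lowers proton pumping and ATP synthesis and lets superoxide form at the complex. In C. elegans larvae, respiratory inhibitors are known to turn on mitochondrial chaperones and proteases, enzymes that clear foreign compounds and genes of innate defence, and to slow growth. Mitochondrial respiration also needs heme, which C. elegans cannot make and takes up from its food.

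The libraries were of even depth, with 3879423 and 4143718 counts in P0 worms and 3771905 and 4145620 counts in untreated worms. Levels are counts per 1000000 after library scaling (CPM), given for replicate 1 and then replicate 2, and a log2 difference is P0 minus untreated with the SE of the fit. A transcript is said to have risen or fallen where edgeR's quasi-likelihood test gave a Benjamini-Hochberg adjusted p under 0.05 over all 12498 transcripts. Among transcripts at 10 CPM or more, the median absolute log2 difference was 0.0889 between the P0 libraries and 0.0967 between the untreated libraries. Across the groups it lay between 0.163 and 0.179 for the 4 pairs of a P0 and an untreated library. Between replicates, 16 such transcripts differed at least 2-fold in P0 worms and 41 in untreated worms, while between 269 and 301 did so across the groups.

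Most changes were small. Of the 12498 transcripts, 1626 rose (13.0%) and 1017 fell (8.14%), 21.1% in all, and 54.3% of the rises and 76.0% of the falls were under 1.5-fold. The changes of 2-fold or more were mostly rises, 389 (3.11%) against 85 falls (0.680%). At 4-fold or more there were 153 rises and 8 falls. At 8-fold or more there were 71 rises and 4 falls. With or without a call, both P0 libraries lay above both untreated ones for 3823 transcripts (30.6%) and below them for 3456 (27.7%). With scaling factors taken from transcripts of low count density, which moved the median log2 difference by -0.05, the split was 1299 rises and 1261 falls, so that rises were 50.7% of the calls in place of 61.5%. DESeq2 called 1036 rises and 457 falls. Without P0 replicate 2, 1139 transcripts rose and 654 fell.

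**Figure D1:**
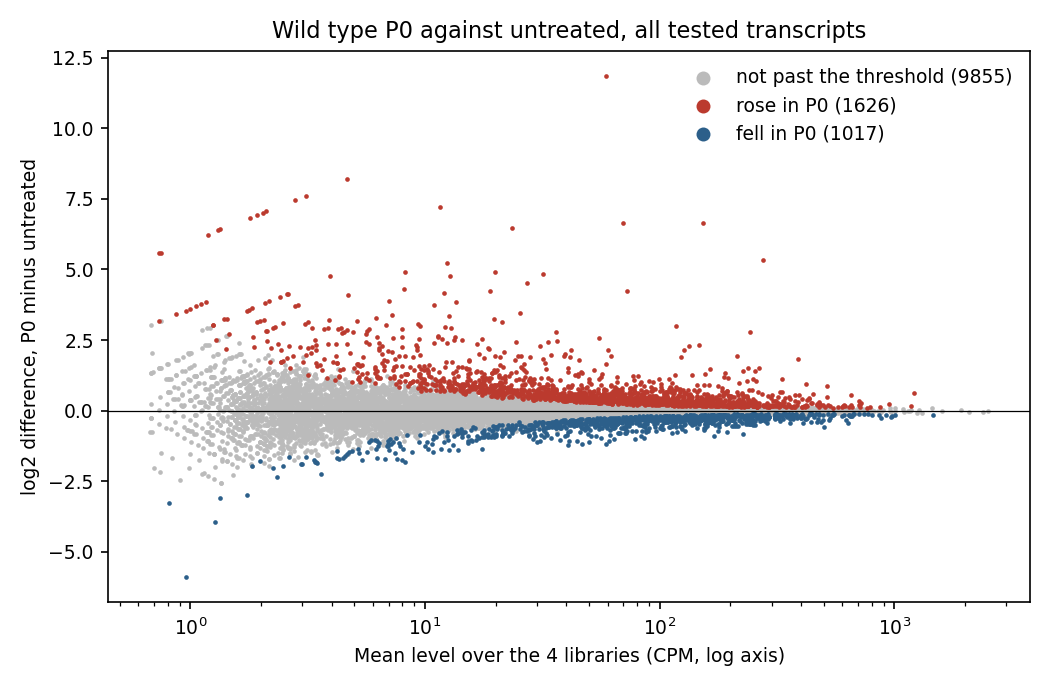
Each point is 1 of the 12498 tested transcripts, with its mean level in CPM on a log axis across and its log2 difference, P0 minus untreated, upward. Red points rose and blue points fell past the threshold, and of the differences of 4-fold or more that passed it 153 are rises and 8 are falls.

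The transcripts that rose most were scarce before treatment. Those that rose at least 2-fold had a median of 15.1 CPM in P0 worms and 4.25 CPM in untreated worms, beside a median of 31.2 CPM over all tested transcripts in untreated worms. Together they held 1.64% and 1.63% of the counts in P0 worms, against 0.511% and 0.517% in untreated worms. Dense transcripts, by contrast, hardly moved. Of 479 transcripts with at least 1 count per nucleotide of spliced length, 21 rose and 31 fell, and the median absolute log2 difference was 0.0405. It was 0.196 for the 2052 transcripts between 0.1 and 0.2 counts per nucleotide, of which 370 rose and 204 fell. The 99th percentile of density was 1.42 counts per nucleotide and no transcript over 200 nucleotides passed 1.94, and the cause of this ceiling was not tested.

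Single genes of drug metabolism, heme and metal handling and defence led the rises. The cytochrome P450 cyp-14A4 had 302 and 302 CPM in P0 worms, against 1.84 and 4.01 CPM in untreated worms (log2 difference 6.65 ± 0.11, adjusted p = 8.3e-23). Its relative cyp-14A1 had 139.6 and 136 CPM in P0 worms, against 6.56 and 7.79 CPM in untreated worms (log2 difference 4.25 ± 0.12, adjusted p = 3.3e-18). The P450 cyp-13A5 had 16.8 and 15.1 CPM in P0 worms, against 0.525 and 0.472 CPM in untreated worms (log2 difference 4.92 ± 0.40, adjusted p = 2.4e-09). In all 3 genes both P0 libraries stood above both untreated ones, and the untreated worms held only traces of cyp-13A5. The glutathione S-transferase gst-14 had 49.7 and 43.6 CPM in P0 worms, against 0.262 and 0.708 CPM in untreated worms (log2 difference 6.46 ± 0.28, adjusted p = 1.3e-14). The heme-binding membrane protein hrg-2, made in the epidermis when heme is short, had 21.2 and 27.3 CPM in P0 worms, against 0.525 and 0.708 CPM in untreated worms (log2 difference 5.22 ± 0.39, adjusted p = 5.1e-10). These genes were nearly silent without the drug. Metallothionein mtl-1, which binds metals, had 42.9 and 34.5 CPM in P0 worms, against 0.262 and 2.12 CPM in untreated worms (log2 difference 4.93 ± 0.33, adjusted p = 7.5e-11), and its untreated libraries were further apart than those of the other genes in this paragraph.

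Defence genes and genes without a settled role stood beside them. The C-type lectin clec-17 had 136 and 141 CPM in P0 worms, against 1.57 and 1.18 CPM in untreated worms (log2 difference 6.63 ± 0.17, adjusted p = 1.3e-18). The gene clec-47 of the same family had 43.2 and 50.3 CPM in P0 worms, against 4.72 and 3.78 CPM in untreated worms (log2 difference 3.46 ± 0.17, adjusted p = 2.6e-13). The pals gene pals-6, of a family whose members include genes that respond to intracellular pathogens, had 24.6 and 24.7 CPM in P0 worms, against 0.787 and 0.944 CPM in untreated worms (log2 difference 4.77 ± 0.35, adjusted p = 4e-10). The groups were far apart for all 3. F22B3.7 had 0 counts in both untreated libraries and 950 in the P0 libraries together, at least 317-fold higher in P0 worms taking 3 counts over both untreated libraries as the floor. Collagen gene col-143 of the cuticle had 186 counts in P0 worms and 1 in untreated worms, a ratio of 186 (exact 95% counting interval 33 to 7400, counting error only). Counts of this size in an untreated group make the fitted fold depend on the prior count. R08F11.4 had 59.0 and 63.5 CPM in P0 worms, against 1.84 and 2.36 CPM in untreated worms (log2 difference 4.84 ± 0.21, adjusted p = 1e-14). F55G11.7 had 54.8 and 49.1 CPM in P0 worms, against 2.10 and 2.36 CPM in untreated worms (log2 difference 4.52 ± 0.20, adjusted p = 3.4e-14). The other 6 among the 20 largest rises were F28H6.8, B0205.14, K03D3.2, Y105C5A.8, F33H12.7 and drd-50, with log2 differences between 3.74 ± 0.33 for drd-50 and 4.32 ± 0.46 for F28H6.8. Like the falls named next, they reached 10 CPM or more in 1 of the groups, and the groups did not overlap. The remaining 1 was acs-2, described with the lipid genes.

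**Figure D2:**
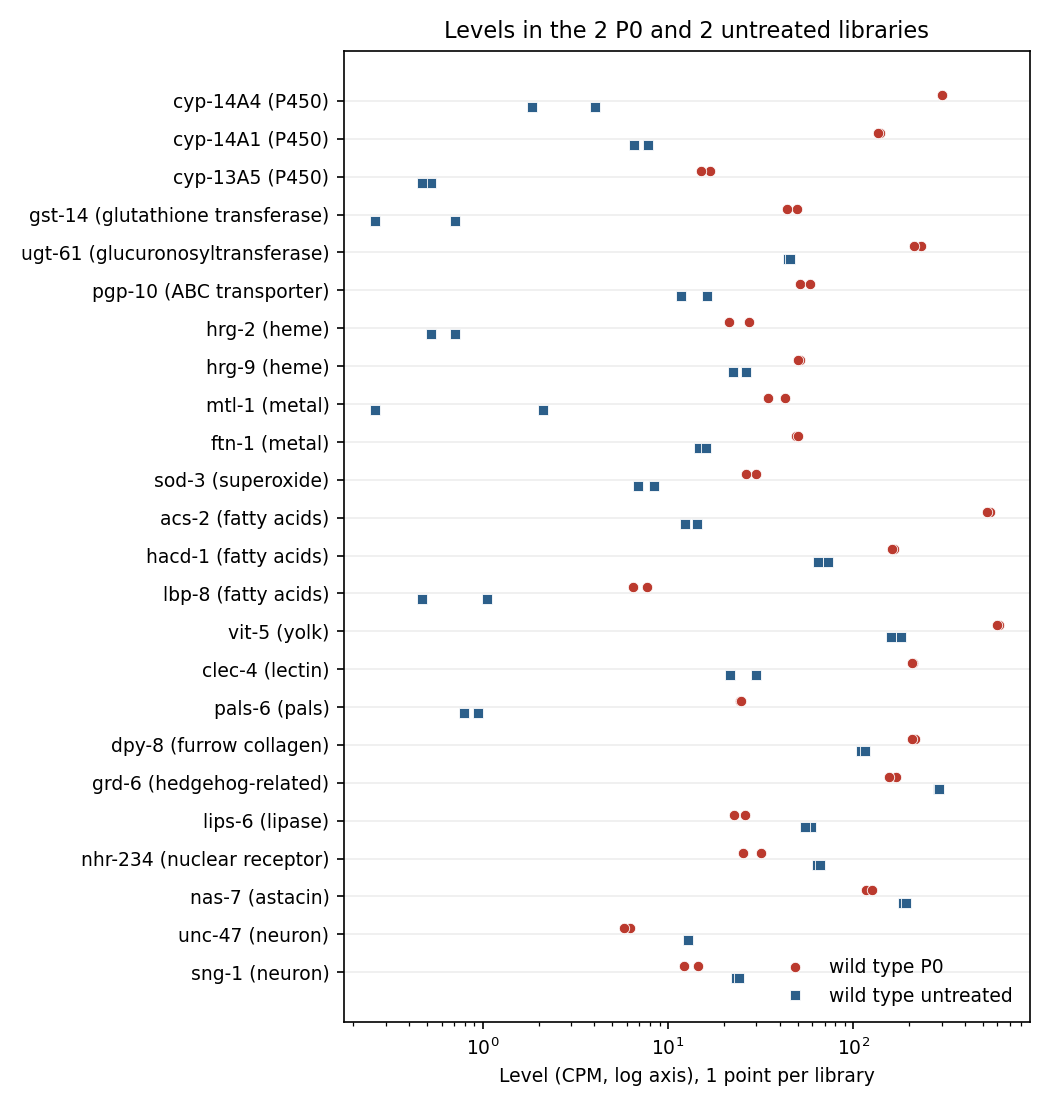
Levels in CPM on a log axis of 24 named genes, 1 point per library, with the 2 P0 libraries as red circles and the 2 untreated libraries as blue squares. For the 18 genes from cyp-14A4 to dpy-8 the P0 points lie to the right of the untreated points, and for the 6 genes from grd-6 to sng-1 they lie to the left.

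Falls were smaller. The lipase gene lips-6 had 26.1 and 22.8 CPM in P0 worms, against 59.3 and 55 CPM in untreated worms (log2 difference -1.22 ± 0.19, adjusted p = 3.9e-05). Nuclear hormone receptor gene nhr-234 had 31.8 and 25.4 CPM in P0 worms, against 63.7 and 65.8 CPM in untreated worms (log2 difference -1.19 ± 0.12, adjusted p = 6.9e-08). E03H4.4 had 39.8 and 32.4 CPM in P0 worms, against 90.5 and 73.8 CPM in untreated worms (log2 difference -1.19 ± 0.14, adjusted p = 9e-07). These 3 were the only genes among the 20 largest falls above 30 CPM in untreated worms, and their libraries did not overlap between the groups. The chemoreceptor gene srx-45 had 9.83 and 9.83 CPM in P0 worms, against 22.0 and 28.3 CPM in untreated worms (log2 difference -1.36 ± 0.26, adjusted p = 0.00039). The synaptotagmin gene snt-7, of a family of calcium sensors for vesicle release, had 5.43 and 7.67 CPM in P0 worms, against 17.6 and 16.3 CPM in untreated worms (log2 difference -1.36 ± 0.30, adjusted p = 0.0015). The Krüppel-like transcription factor gene klf-2 had 9.57 and 6.23 CPM in P0 worms, against 16.5 and 20.1 CPM in untreated worms (log2 difference -1.22 ± 0.34, adjusted p = 0.011). The kinase gene unc-82, of muscle filament order, had 5.95 and 3.36 CPM in P0 worms, against 11.8 and 10.1 CPM in untreated worms (log2 difference -1.24 ± 0.38, adjusted p = 0.021). All 4 were low in both groups. Further falls of this size were those of iglr-1, try-9, col-96, cut-3, F55F8.8, F57C9.6, K01A6.7, B0334.13, T19D12.3, Y47G6A.30, F47B8.10, T28C12.6 and Y77E11A.16, from -1.81 ± 0.38 for try-9 to -1.18 ± 0.31 for Y77E11A.16. Leaving out 1 library ended the calls of klf-2 (adjusted p = 0.150 without P0 replicate 2 and 0.104 without untreated replicate 2), unc-82 (adjusted p = 0.229 without P0 replicate 2 and 0.115 without untreated replicate 1), iglr-1 (adjusted p = 0.0603 without P0 replicate 2 and 0.178 without untreated replicate 1), col-96 (adjusted p = 0.131 without P0 replicate 1 and 0.0561 without untreated replicate 2), cut-3 (adjusted p = 0.0734 without P0 replicate 1, 0.161 without P0 replicate 2 and 0.170 without untreated replicate 1), K01A6.7 (adjusted p = 0.222 without P0 replicate 2 and 0.288 without untreated replicate 1), T19D12.3 (adjusted p = 0.0502 without P0 replicate 1), Y47G6A.30 (adjusted p = 0.0774 without P0 replicate 1, 0.0750 without P0 replicate 2 and 0.0937 without untreated replicate 1), F47B8.10 (adjusted p = 0.186 without P0 replicate 1 and 0.0657 without untreated replicate 1), T28C12.6 (adjusted p between 0.0708 and 0.160 over the 4 libraries) and Y77E11A.16 (adjusted p = 0.136 without P0 replicate 1). DESeq2 did not call klf-2, unc-82, cut-3, Y47G6A.30 or T28C12.6.

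Ranked by counts gained rather than by fold, other genes led. After acs-2, the largest gain was that of hrg-11.2, with 1450.0 and 1466 CPM in P0 worms, against 965 and 948 CPM in untreated worms (log2 difference 0.61 ± 0.03, adjusted p = 4.8e-13). The yolk protein gene vit-5 had 609 and 597 CPM in P0 worms, against 180.2 and 159 CPM in untreated worms (log2 difference 1.83 ± 0.05, adjusted p = 1.4e-18). P450 gene cyp-33C8 had 431 and 415 CPM in P0 worms, against 59.3 and 62.1 CPM in untreated worms (log2 difference 2.80 ± 0.06, adjusted p = 2.3e-20). In each the P0 libraries lay close together, above both untreated libraries. The UDP-glucuronosyltransferase ugt-62 had 681 and 649 CPM in P0 worms, against 365 and 365 CPM in untreated worms (log2 difference 0.86 ± 0.05, adjusted p = 5.6e-12). The cadmium-responsive gene cdr-4 had 340.1 and 318 CPM in P0 worms, against 127 and 124 CPM in untreated worms (log2 difference 1.39 ± 0.06, adjusted p = 7.3e-15). The P-glycoprotein pgp-9, a membrane pump, had 796 and 744 CPM in P0 worms, against 534 and 527 CPM in untreated worms (log2 difference 0.54 ± 0.05, adjusted p = 7.8e-09). Other large gains were those of epic-2 (0.93 ± 0.05), R193.2 (1.11 ± 0.05), ugt-19 (1.95 ± 0.06) and the cuticle collagens col-103 (1.51 ± 0.05), col-98 (1.51 ± 0.06), col-42 (1.41 ± 0.05) and col-176 (2.33 ± 0.07), all as log2 differences.

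The largest losses by counts fell on abundant transcripts. The secreted metalloprotease adt-1, of the ADAMTS type, had 395 and 399.8 CPM in P0 worms, against 596 and 606 CPM in untreated worms (log2 difference -0.60 ± 0.04, adjusted p = 4.8e-11). The hedgehog-related gene grd-6 had 171 and 156 CPM in P0 worms, against 285 and 291 CPM in untreated worms (log2 difference -0.82 ± 0.05, adjusted p = 3.1e-11). One transcript of the ankyrin gene unc-44, a membrane scaffold, fell to 543 and 529.7 CPM in P0 worms, against 714 and 755 CPM in untreated worms. In all 3 the groups were well apart. The muscle-to-cuticle linker mup-4 had 1389.7 and 1364 CPM in P0 worms, against 1569 and 1494 CPM in untreated worms (log2 difference -0.15 ± 0.03, adjusted p = 0.0021). The purine synthesis enzyme pfas-1 had 919 and 905 CPM in P0 worms, against 1039 and 1025 CPM in untreated worms (log2 difference -0.18 ± 0.03, adjusted p = 0.00016). Other large losses by counts were those of pifk-1A (-0.26 ± 0.03), T06D8.10 (-0.23 ± 0.03), pes-7 (-0.34 ± 0.03), C50B6.7 (-0.41 ± 0.04), suro-1 (-0.33 ± 0.04) and ZK84.1 (-0.16 ± 0.04), again as log2 differences. When 1 library was left out, the threshold was not reached by mup-4 (adjusted p = 0.0515 without untreated replicate 1) and ZK84.1 (adjusted p = 0.141 without P0 replicate 2 and 0.231 without untreated replicate 1).

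In each of the families that modify and export foreign compounds, rises outnumbered falls, as they did over all tested transcripts (1626 against 1017). For glutathione S-transferases this did not hold with low-density factors, which gave 5 rises and 5 falls. Cytochromes P450, which oxidise drugs, rose in 28 and fell in 7 of 59, with a median log2 difference of 0.38 beside 0.0055 over all tested transcripts (24 to 27 rises and 4 to 6 falls with a library left out, 25 rises and 4 falls by DESeq2). The P450 cyp-13A8 had 33.1 and 38.1 CPM in P0 worms, against 4.98 and 2.60 CPM in untreated worms (log2 difference 3.25 ± 0.23, adjusted p = 1.8e-10). UDP-glucuronosyltransferases, which add sugar to such compounds, rose in 12 and fell in 7 of 52 (median 0.09, 9 to 11 rises and 3 falls with a library left out, 11 rises and 2 falls by DESeq2). Among them ugt-61 had 231 and 214 CPM in P0 worms, against 44.3 and 45.8 CPM in untreated worms (log2 difference 2.30 ± 0.08, adjusted p = 3.7e-16). The gene ugt-2 had 223 and 218 CPM in P0 worms, against 86.8 and 93.7 CPM in untreated worms (log2 difference 1.29 ± 0.05, adjusted p = 7e-15). The share of falls in this family was above that of all transcripts as well. Glutathione S-transferases, which add glutathione, rose in 6 and fell in 4 of 41 (median 0.02, 4 to 6 rises and 1 to 4 falls with a library left out, 4 rises and 1 fall by DESeq2), a share of rises near that of all transcripts. Beside gst-14, gst-19 had 29.5 and 30.4 CPM in P0 worms, against 1.84 and 8.26 CPM in untreated worms (log2 difference 2.52 ± 0.30, adjusted p = 7.6e-07), gst-12 rose by 1.41 ± 0.22 and gst-35 fell, with a log2 difference of -0.55 ± 0.12. The gst-4 gene, whose promoter is a common reporter of oxidative stress, had 164 and 148 CPM in P0 worms, against 139 and 129.5 CPM in untreated worms (log2 difference 0.21 ± 0.06, adjusted p = 0.0089). ABC transporters, membrane pumps, rose in 15 and fell in 5 of 47 (median 0.14, 10 to 14 rises and 2 to 4 falls with a library left out, 11 rises and 3 falls by DESeq2). The pump gene pgp-10 had 51.5 and 58.7 CPM in P0 worms, against 11.8 and 16.3 CPM in untreated worms (log2 difference 1.96 ± 0.17, adjusted p = 6.5e-09). Transporter gene haf-3 rose by 0.66 ± 0.05 and pgp-11 by 1.28 ± 0.13. Short-chain dehydrogenases of the dhs group rose in 6 and fell in 2 of 26 (median 0.08, 3 to 4 rises and 1 to 2 falls with a library left out, 3 rises and 1 fall by DESeq2), among them dhs-23 (0.81 ± 0.18). Nuclear hormone receptors, transcription factors of which some govern drug metabolism, rose in 18 and fell in 9 of 137 (median 0.03, 11 to 15 rises and 2 to 6 falls with a library left out, 11 rises and 1 fall by DESeq2), close to all transcripts. Here nhr-155 had 33.6 and 42.7 CPM in P0 worms, against 3.67 and 4.95 CPM in untreated worms (log2 difference 3.13 ± 0.25, adjusted p = 1.6e-09) and nhr-193 rose by 1.12 ± 0.11. Without 1 of the libraries there was no call for gst-4 (adjusted p = 0.192 without P0 replicate 1 and 0.139 without untreated replicate 2). Neither DESeq2 nor the fit with low-density factors called gst-4.

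Genes of heme handling moved mostly upward. Of 11 tested genes with hrg names, given to heme-responsive genes, 6 rose and 1 fell (median 0.46, 6 to 7 rises and 0 to 1 falls with a library left out, 6 rises and 0 falls by DESeq2). DESeq2 and the fit with low-density factors also counted 6 rises. The gene hrg-9, which moves heme out of cellular stores, had 51.7 and 50.1 CPM in P0 worms, against 26.2 and 22.4 CPM in untreated worms (log2 difference 1.07 ± 0.15, adjusted p = 6.7e-06). Its relative hrg-10 had 90.3 and 99.9 CPM in P0 worms, against 46.4 and 51.7 CPM in untreated worms (log2 difference 0.95 ± 0.08, adjusted p = 2.1e-09). For hrg-7, a secreted protease-like signal of heme status, there were 196 and 184 CPM in P0 worms, against 139.8 and 135 CPM in untreated worms (log2 difference 0.46 ± 0.05, adjusted p = 1.2e-07). None of these overlapped between the groups. The other rises were those of hrg-2 and hrg-11.2, given above, and hrg-11.4 (1.16 ± 0.06). Of the heme importer family, hrg-1 had 94.6 and 80.5 CPM in P0 worms, against 72.4 and 79.5 CPM in untreated worms, not past the threshold (log2 difference 0.20 ± 0.08, adjusted p = 0.093), though it passed without P0 replicate 2 (adjusted p = 0.0227). The low-level gene hrg-6 of that family fell, with 11.9 and 19.4 CPM in P0 worms, against 21.8 and 27.8 CPM in untreated worms (log2 difference -0.66 ± 0.21, adjusted p = 0.03). Not past the threshold were hrg-3 (0.15 ± 0.56), hrg-5 (-0.57 ± 0.44) and the most abundant of the group, hrg-11.3 (-0.02 ± 0.04), whose density of 1.54 counts per nucleotide was at the ceiling described above. Lost without 1 library was the call of hrg-6 (adjusted p = 0.353 without P0 replicate 1 and 0.277 without untreated replicate 2). There was no DESeq2 call for hrg-6.

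Metal genes and a few enzymes against oxidants rose as well. Of 17 metal genes 5 rose and 1 fell (median 0.06, 5 rises and 0 to 1 falls with a library left out). The ferritin gene ftn-1, which stores iron, had 49.1 and 50.1 CPM in P0 worms, against 14.7 and 16 CPM in untreated worms (log2 difference 1.69 ± 0.14, adjusted p = 4e-09), and cdr-2 rose by 0.66 ± 0.05. The mitochondrial superoxide dismutase sod-3 had 29.7 and 26.4 CPM in P0 worms, against 8.39 and 6.84 CPM in untreated worms (log2 difference 1.88 ± 0.21, adjusted p = 2.5e-07). It was 1 of 2 rises of 2-fold or more among 20 antioxidant transcripts, of which the highest log2 difference was 3.51. Of the 20, 5 rose and 1 fell (median -0.0012), and DESeq2 called 1 rise and 0 falls. Thioredoxin reductase gene trxr-2, of mitochondria, rose by 0.34 ± 0.10 and msra-1, which repairs oxidised methionine, by 0.21 ± 0.06. The glutathione peroxidase gpx-1 fell, with -0.22 ± 0.06. Among 16 transcripts of the hypoxia and hydrogen sulfide response, 3 rose and 2 fell (median -0.09). The nuclear receptor nhr-57, a known target of the hypoxia factor HIF-1, had 56.1 and 62.3 CPM in P0 worms, against 35.9 and 31.6 CPM in untreated worms (log2 difference 0.82 ± 0.13, adjusted p = 3.4e-05), while rhy-1, a negative regulator of that factor, fell by 0.35 on the log2 scale (adjusted p = 3.5e-05). Leaving out 1 library ended the calls of trxr-2 (adjusted p = 0.145 without P0 replicate 2 and 0.110 without untreated replicate 1), msra-1 (adjusted p = 0.0786 without P0 replicate 1 and 0.0661 without untreated replicate 2) and gpx-1 (adjusted p = 0.104 without P0 replicate 1, 0.0547 without P0 replicate 2 and 0.112 without untreated replicate 1). With DESeq2 there was no call for trxr-2, msra-1 or gpx-1. The fit with low-density factors did not call msra-1.

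The transcripts of the respiratory chain itself, the target of the drug, differed little. Of 73 tested transcripts of nuclear-encoded genes for the 5 complexes and their assembly, 7 rose and 0 fell, with a median log2 difference of 0.027, and 31 of them had at least 1 count per nucleotide. DESeq2 called 0 falls among them as well, but a fall in complex III, that of isp-1, appeared in other fits. In complex III, the Rieske iron-sulfur protein isp-1 had 313 and 296 CPM in P0 worms, against 345 and 325 CPM in untreated worms, not past the threshold (log2 difference -0.14 ± 0.05, adjusted p = 0.053). It passed without untreated replicate 2 (adjusted p = 0.0429), with library size as the only scaling (0.0132), with a minimum of 10 CPM (0.0365) and within the groups compared (0.0357). Cytochrome c1, cyc-1, had 366 and 349 CPM in P0 worms, against 358 and 332 CPM in untreated worms (log2 difference 0.05 ± 0.05, adjusted p = 0.54). The core subunit ucr-2.2 had 395 and 374 CPM in P0 worms, against 386 and 371 CPM in untreated worms (log2 difference 0.02 ± 0.05, adjusted p = 0.81). For these 3 abundant subunits, at 1.3, 0.970 and 1.07 counts per nucleotide, the levels are near that ceiling, and its part in the small differences was not tested. The related core subunit ucr-2.3, less dense at 0.406, rose, with 149 and 159 CPM in P0 worms, against 117 and 120.3 CPM in untreated worms (log2 difference 0.37 ± 0.05, adjusted p = 7.8e-06). Cytochrome c itself, cyc-2.1, had 173 and 161 CPM in P0 worms, against 166 and 159 CPM in untreated worms (log2 difference 0.04 ± 0.06, adjusted p = 0.73), and its copy cyc-2.2 was not called either (-0.13 ± 0.12). Of 12 genes for complex III and cytochrome c, 2 rose and 0 fell, the other rise being cchl-1.

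Several of the genes that rose in the chain act on heme or are second copies of a subunit. The lyase cchl-1, which attaches heme to cytochrome c, had 228 and 216 CPM in P0 worms, against 178 and 166 CPM in untreated worms (log2 difference 0.37 ± 0.05, adjusted p = 1.2e-05). The heme A synthase cox-15 had 232 and 232 CPM in P0 worms, against 163 and 166 CPM in untreated worms (log2 difference 0.50 ± 0.05, adjusted p = 1.6e-08). The heme O synthase cox-10 had 108 and 107 CPM in P0 worms, against 84.2 and 97.9 CPM in untreated worms (log2 difference 0.23 ± 0.07, adjusted p = 0.015). Both make the heme of complex IV, in which 3 of 15 transcripts rose and 0 fell, the other rise being the membrane insertion factor cox-18 (0.25 ± 0.07). Low-density factors and DESeq2 each left 1 call in complex IV. In complex II, sdha-2, a second copy of the flavoprotein subunit, had 249.5 and 224 CPM in P0 worms, against 166 and 169.6 CPM in untreated worms (log2 difference 0.49 ± 0.06, adjusted p = 2.8e-06). The main copy sdha-1 had 506 and 489.9 CPM in P0 worms, against 488 and 461 CPM in untreated worms (log2 difference 0.07 ± 0.04, adjusted p = 0.22). In complex I the single rise among 31 was nduf-2.2 (152 and 156 CPM in P0 worms, against 124 and 128 CPM in untreated worms), a second copy of a core subunit whose main copy gas-1 differed by 0.05 ± 0.04 (adjusted p = 0.39). The second copies sdha-2 and nduf-2.2 were less dense, at 0.400 and 0.378 counts per nucleotide, than sdha-1 and gas-1, at 0.814 and 1.07. The part of density in these contrasts was not tested. Among 10 ATP synthase genes, with log2 differences from -0.07 to 0.26, edgeR and DESeq2 called 0, and 2 had an unadjusted p under 0.05. The mitochondrially encoded subunits are not listed in the table and were not analysed here. When 1 library was left out, the threshold was not reached by cox-10 (adjusted p = 0.0831 without P0 replicate 1, 0.0649 without P0 replicate 2 and 0.339 without untreated replicate 1) and cox-18 (adjusted p = 0.0920 without P0 replicate 2 and 0.0963 without untreated replicate 1). Neither DESeq2 nor the fit with low-density factors called cox-10 or cox-18.

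**Figure D3:**
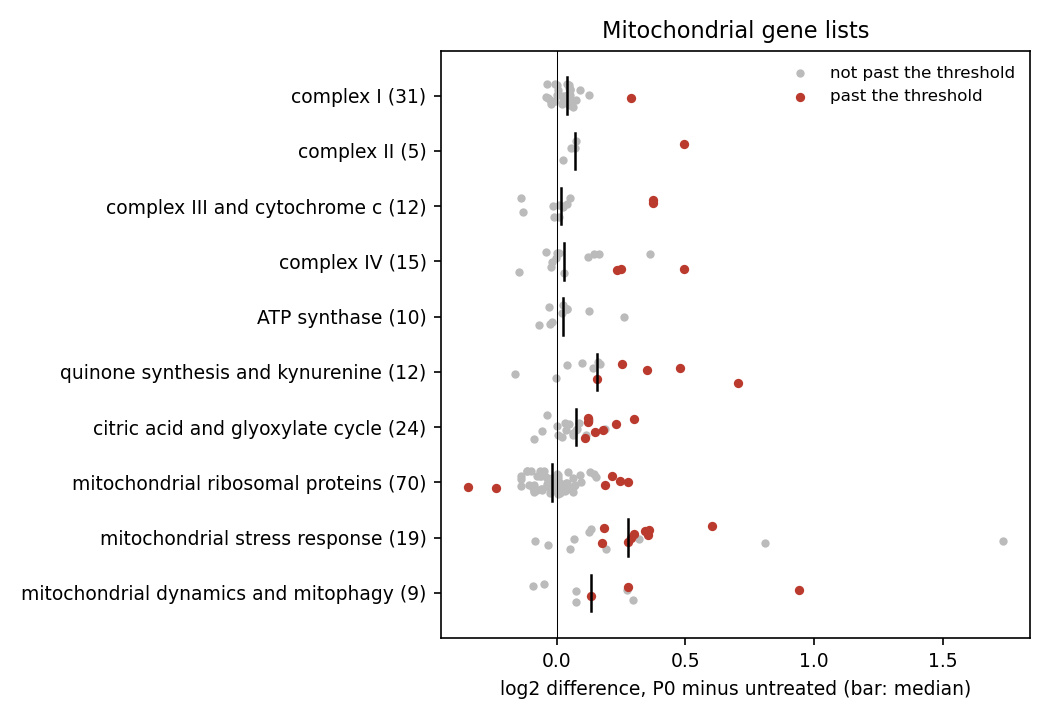
Log2 differences, P0 minus untreated, of the transcripts in 10 mitochondrial gene lists, 1 point per transcript and a bar at each median, with the number tested beside the name. Red points passed the threshold: the stress response, quinone and dynamics lists have medians of 0.28, 0.16 and 0.13, and those of the 5 complexes lie between 0.02 and 0.07.

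Genes that build quinones, the substrate side of complex III, rose in part. Of 12 genes for ubiquinone synthesis and for the kynurenine pathway, which in C. elegans feeds the synthesis of rhodoquinone, 5 rose and 0 fell (median 0.16). The polyprenyl synthase coq-1, which makes the side chain, had 246 and 234 CPM in P0 worms, against 147 and 147 CPM in untreated worms (log2 difference 0.70 ± 0.05, adjusted p = 7.4e-11). The kinase-like coq-8 had 408 and 416 CPM in P0 worms, against 304 and 288 CPM in untreated worms (log2 difference 0.48 ± 0.04, adjusted p = 4.5e-09). The hydroxylase clk-1 had 82.2 and 82.7 CPM in P0 worms, against 66.9 and 62.5 CPM in untreated worms (log2 difference 0.35 ± 0.08, adjusted p = 0.0012). The rest of the rises were the methyltransferase coq-5 (0.25 ± 0.05) and the kynureninase kynu-1 (0.16 ± 0.05). Not called were coq-3, coq-4, coq-6, afmd-1, kmo-1, haao-1 and nkat-1, from -0.16 ± 0.22 for afmd-1 to 0.17 ± 0.45 for nkat-1. Without 1 of the libraries there was no call for kynu-1 (adjusted p = 0.285 without P0 replicate 1 and 0.256 without untreated replicate 2). Neither DESeq2 nor the fit with low-density factors called kynu-1.

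Several mitochondrial proteases rose by small amounts. Of 19 stress response genes 9 rose and 0 fell (median 0.28), and DESeq2 called 8 of them. The inner membrane protease spg-7 had 484 and 465 CPM in P0 worms, against 371 and 369 CPM in untreated worms (log2 difference 0.36 ± 0.04, adjusted p = 7.6e-08). Its partner ppgn-1 had 261 and 247 CPM in P0 worms, against 185 and 210.0 CPM in untreated worms (log2 difference 0.36 ± 0.05, adjusted p = 9.2e-06). Both P0 libraries were above both untreated ones for each. The matrix protease lonp-1 had 484 and 483 CPM in P0 worms, against 407 and 392 CPM in untreated worms (log2 difference 0.28 ± 0.04, adjusted p = 4.3e-06). The histone methyltransferase met-2, which acts on histone H3 and takes part in this response, had 189 and 182 CPM in P0 worms, against 123 and 121 CPM in untreated worms (log2 difference 0.60 ± 0.06, adjusted p = 1.6e-07). The chaperone hsp-6, whose promoter is the usual reporter of the response, had 765 and 732 CPM in P0 worms, against 679.5 and 639 CPM in untreated worms (log2 difference 0.18 ± 0.04, adjusted p = 0.003), at a density of 1.15 counts per nucleotide. Of the import genes of this list, timm-17B.1 and timm-23 rose, by 0.30 and 0.34, and tomm-20, tomm-22 and timm-17B.2 were not called. For the chaperonin hsp-60 there were 99 and 94.0 CPM in P0 worms, against 86.5 and 82.6 CPM in untreated worms, not past the threshold (log2 difference 0.19 ± 0.06, adjusted p = 0.054), though it passed with a minimum of 10 CPM (adjusted p = 0.0477). Lost without 1 library was the call of hsp-6 (adjusted p = 0.0560 without P0 replicate 1 and 0.0775 without untreated replicate 2). The fit with low-density factors did not call hsp-6.

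Genes of mitochondrial form and turnover were mostly not called. The fission adaptor gene mff-2 had 109 and 107 CPM in P0 worms, against 53.2 and 58.7 CPM in untreated worms (log2 difference 0.94 ± 0.07, adjusted p = 4e-10), while its relative mff-1 differed by -0.09 ± 0.18 (adjusted p = 0.79). Of 9 such genes 3 rose and 0 fell (median 0.13, 1 to 2 rises and 0 falls with a library left out, 1 rise and 0 falls by DESeq2), the other rises being the mitophagy kinase pink-1 (0.28 ± 0.08) and the mitofusin fzo-1 (0.13 ± 0.04). DESeq2 called 1 of them. Not called were eat-3, miro-1, fis-1, fndc-1 and sqst-1. There was no change of 2-fold or more among 70 transcripts of mitochondrial ribosomal proteins, of which 4 rose and 2 fell (median -0.02, 3 to 4 rises and 0 to 2 falls with a library left out, 3 rises and 0 falls by DESeq2). The mitochondrial tRNA synthetase nars-2 had 92.8 and 102 CPM in P0 worms, against 51.7 and 61.8 CPM in untreated worms (log2 difference 0.78 ± 0.08, adjusted p = 5.8e-08). It was 1 of 4 rises among 25 synthetase genes, as was dars-2 (0.42 ± 0.07). Genes of the citric acid and glyoxylate cycles rose in 7 and fell in 0 of 24 (median 0.08, 1 to 4 rises and 0 falls with a library left out), all by less than 1.5-fold, but only 1 was called with low-density factors and 1 by DESeq2. Leaving out 1 library ended the calls of pink-1 (adjusted p = 0.121 without P0 replicate 2 and 0.0585 without untreated replicate 1) and fzo-1 (adjusted p between 0.0892 and 0.209 over the 4 libraries). DESeq2 did not call pink-1 or fzo-1. The fit with low-density factors did not call fzo-1. Also not called with library size as the only scaling was fzo-1 (adjusted p = 0.0979). Also not called within the groups compared was fzo-1 (adjusted p = 0.0910).

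Lipid genes moved in both directions. The acyl-CoA synthetase acs-2, which activates fatty acids for mitochondrial oxidation, had 547 and 528 CPM in P0 worms, against 12.3 and 14.4 CPM in untreated worms (log2 difference 5.32 ± 0.08, adjusted p = 5.1e-23). The fatty acid binding protein lbp-8, a lysosomal lipid carrier, had 6.46 and 7.67 CPM in P0 worms, against 1.05 and 0.472 CPM in untreated worms (log2 difference 3.20 ± 0.43, adjusted p = 4.8e-06). The gene hacd-1, a hydroxyacyl-CoA dehydrogenase of beta-oxidation, had 166 and 162 CPM in P0 worms, against 64.8 and 72.9 CPM in untreated worms (log2 difference 1.24 ± 0.06, adjusted p = 1.9e-13). These rises were set against falls of other steps. The carnitine palmitoyltransferase cpt-4 had 391 and 369 CPM in P0 worms, against 507 and 493 CPM in untreated worms (log2 difference -0.40 ± 0.04, adjusted p = 9.1e-08). The gene cpt-5, of the same family, had 478 and 460.0 CPM in P0 worms, against 596 and 573 CPM in untreated worms (log2 difference -0.32 ± 0.04, adjusted p = 3e-07). The enoyl-CoA hydratase gene ech-1.1 had 388 and 409 CPM in P0 worms, against 548 and 519 CPM in untreated worms (log2 difference -0.42 ± 0.04, adjusted p = 1.2e-08). In these 3 genes the groups did not overlap, and the falls were under 1.5-fold. Counted by list, acs genes rose in 6 and fell in 3 of 17 (median 0.09), and other beta-oxidation genes rose in 5 and fell in 7 of 27 (median -0.03, 2 to 5 rises and 4 to 8 falls with a library left out, 3 rises and 5 falls by DESeq2). Of 12 acyl-CoA dehydrogenases 1 rose and 1 fell, acdh-5 (0.60 ± 0.20) and acdh-6 (-0.20 ± 0.05), with 0 to 1 rises and 0 to 1 falls with a library left out, 0 rises and 0 falls by DESeq2. When 1 library was left out, the threshold was not reached by acdh-5 (adjusted p = 0.555 without P0 replicate 2, 0.221 without untreated replicate 1 and 0.0593 without untreated replicate 2) and acdh-6 (adjusted p = 0.0691 without P0 replicate 1). There was no DESeq2 call for acdh-5 or acdh-6.

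Genes that make and store lipid changed less. Fatty acid synthase, fasn-1, had 1044 and 1023 CPM in P0 worms, against 884 and 857 CPM in untreated worms (log2 difference 0.25 ± 0.03, adjusted p = 2.4e-06). The desaturase fat-5 had 169.9 and 156 CPM in P0 worms, against 124 and 128 CPM in untreated worms (log2 difference 0.37 ± 0.06, adjusted p = 5.5e-05). Of 21 synthesis genes 5 rose and 2 fell (median 0.06). Lipases and lipid binding genes rose in 7 and fell in 8 of 31 (median 0.03, 4 to 6 rises and 4 to 7 falls with a library left out, 4 rises and 3 falls by DESeq2), with far-3 rising by 0.72 ± 0.06 and the lipase lipl-2 falling, at -0.41 ± 0.05. Among the yolk genes, which the intestine expresses in adults, vit-5 and vit-1 rose and vit-3 fell. For vit-1 there were 542 and 539 CPM in P0 worms, against 359.8 and 354 CPM in untreated worms (log2 difference 0.60 ± 0.05, adjusted p = 7.3e-10). For vit-3 there were 489 and 477 CPM in P0 worms, against 596 and 554 CPM in untreated worms (log2 difference -0.25 ± 0.05, adjusted p = 0.00067). Not called were vit-2 (0.46 ± 0.36) and vit-4 (-0.04 ± 0.05). In glycolysis 4 of 18 transcripts rose and 0 fell (median 0.11, 2 to 4 rises and 0 falls with a library left out), among them the aldolase aldo-1 (0.33 ± 0.05) and the glyceraldehyde phosphate dehydrogenase gpd-4 (0.60 ± 0.13). Without 1 of the libraries there was no call for gpd-4 (adjusted p = 0.0648 without P0 replicate 2).

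Defence families and families of adaptors for protein destruction rose in part, led by a few members each. C-type lectins, secreted sugar-binding proteins, rose in 26 and fell in 7 of 101 (median 0.15, 17 to 22 rises and 4 to 5 falls with a library left out, 18 rises and 3 falls by DESeq2). The lectin clec-4 had 209 and 207 CPM in P0 worms, against 21.5 and 30.0 CPM in untreated worms (log2 difference 3.0 ± 0.08, adjusted p = 1.3e-18). The gene clec-265 had 265 and 259 CPM in P0 worms, against 113 and 118 CPM in untreated worms (log2 difference 1.18 ± 0.05, adjusted p = 1e-14). Of 16 pals genes 5 rose and 0 fell (median 0.17, 3 to 5 rises and 0 falls with a library left out, 3 rises and 0 falls by DESeq2). The gene pals-34 had 17.3 and 13.4 CPM in P0 worms, against 2.36 and 4.01 CPM in untreated worms (log2 difference 2.24 ± 0.33, adjusted p = 1.6e-05). The gene pals-14 had 6.21 and 5.51 CPM in P0 worms, against 0.525 and 0.944 CPM in untreated worms (log2 difference 2.92 ± 0.71, adjusted p = 0.0045). These pals transcripts were low in every library. F-box genes, most of which code for adaptors that mark proteins for destruction, rose in 21 and fell in 2 of 115 (median 0.19, 8 to 16 rises and 0 to 2 falls with a library left out), and DESeq2 called 8 rises and 0 falls. The F-box gene fbxa-166 had 29.7 and 31.6 CPM in P0 worms, against 4.46 and 8.97 CPM in untreated worms (log2 difference 2.17 ± 0.20, adjusted p = 2.2e-08). The gene fbxa-182 had 32.3 and 30.4 CPM in P0 worms, against 9.44 and 7.08 CPM in untreated worms (log2 difference 1.93 ± 0.24, adjusted p = 2.1e-06). MATH and BTB genes, also adaptors of this kind, rose in 8 and fell in 2 of 55 (6 rises and 2 falls by DESeq2). Their median was 0.14, or 0.05 to 0.15 with a library left out, and bath-47 stood at 2.07 ± 0.19. The share of rises in this list was near the 13.0% of all tested transcripts. With DESeq2 there was no call for pals-14.

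Further defence lists held a few calls each. Lysozymes, saposin-like genes and antimicrobial peptides rose in 6 and fell in 3 of 47 (median -0.01, 2 to 5 rises and 0 to 1 falls with a library left out, 1 rise and 1 fall by DESeq2), a balance that turned to 4 and 5 with low-density factors. The saposin-like gene spp-24 had 17.1 and 16.8 CPM in P0 worms, against 2.10 and 2.12 CPM in untreated worms (log2 difference 2.98 ± 0.32, adjusted p = 1.4e-07). Genes used as reporters of pathogen responses rose in 8 and fell in 0 of 21 (median 0.13, 4 to 6 rises and 0 falls with a library left out), with 3 rises under low-density factors and 3 by DESeq2. Among them dod-21 had 16.6 and 13.7 CPM in P0 worms, against 5.51 and 2.36 CPM in untreated worms (log2 difference 1.96 ± 0.35, adjusted p = 0.00018). The gene irg-4, a far more abundant transcript, had 361 and 339 CPM in P0 worms, against 309.7 and 292 CPM in untreated worms (log2 difference 0.22 ± 0.05, adjusted p = 0.0015). Of mul-1 there were 28 counts in P0 worms and 2 in untreated worms, a ratio of 14.0 (exact counting interval 3.54 to 121). The chitinase-like gene chil-18 had 29 counts in P0 worms and 0 in untreated worms, at least 9.68-fold higher by the same floor. The gene chil-22 had 16.6 and 15.3 CPM in P0 worms, against 7.08 and 7.79 CPM in untreated worms (log2 difference 1.09 ± 0.21, adjusted p = 0.00042). The other 6 of 8 tested chil genes were not called, and they were chil-10, chil-11, chil-12, chil-13, chil-19 and chil-24. Lost without 1 library was the call of mul-1 (adjusted p = 0.0798 without P0 replicate 2 and 0.0696 without untreated replicate 1). DESeq2 did not call mul-1. The fit with low-density factors did not call irg-4.

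The cuticle, the collagen coat rebuilt at each molt, showed a split by kind of collagen. All 6 collagens of the annular furrows, the circular grooves of the cuticle, had higher levels in both P0 libraries, as did 30.6% of all tested transcripts, and 5 of them rose (median 0.84). The furrow collagen dpy-8 had 214 and 207 CPM in P0 worms, against 109.6 and 116 CPM in untreated worms (log2 difference 0.90 ± 0.06, adjusted p = 2.6e-11). For dpy-7 there were 149.7 and 137 CPM in P0 worms, against 77.9 and 80.2 CPM in untreated worms (log2 difference 0.85 ± 0.07, adjusted p = 1.1e-09). For dpy-9 there were 25.6 and 27.1 CPM in P0 worms, against 15.2 and 13.2 CPM in untreated worms (log2 difference 0.90 ± 0.15, adjusted p = 6.7e-05). Replicates of these 3 were close and the groups apart. The group also held dpy-2 (0.65 ± 0.07) and dpy-3 (0.54 ± 0.08), while dpy-10, at 3.36 and 2.82 CPM in P0 worms, was not called (log2 difference 0.83 ± 0.44, adjusted p = 0.21). By contrast, cuticle collagens with col names fell more often than they rose, 39 against 16 of 116 (median -0.10, 14 rises and 24 falls by DESeq2). Among their rises, col-80 had 244 and 238 CPM in P0 worms, against 92.6 and 82.1 CPM in untreated worms (log2 difference 1.47 ± 0.05, adjusted p = 7.8e-16). Other collagens were lower. The adult cuticle collagen col-19 had 171 and 163 CPM in P0 worms, against 247 and 235 CPM in untreated worms (log2 difference -0.53 ± 0.05, adjusted p = 1.9e-08). The collagen col-119 had 42.2 and 42.9 CPM in P0 worms, against 82.6 and 87.1 CPM in untreated worms (log2 difference -1.0 ± 0.13, adjusted p = 4.9e-06). The collagen col-137 had 37.8 and 41.0 CPM in P0 worms, against 78.9 and 86.1 CPM in untreated worms (log2 difference -1.07 ± 0.10, adjusted p = 4.2e-08). Of 13 other body shape collagens, dense transcripts at a median of 1.38 counts per nucleotide, bli-1 of the cuticle struts rose by 0.14 ± 0.04 and no other was called, and with low-density factors none was. At an unadjusted p under 0.05 there were 2 of them. Leaving out 1 library ended the call of bli-1 (adjusted p = 0.236 without P0 replicate 1 and 0.244 without untreated replicate 2). The fit with low-density factors did not call bli-1.

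Enzymes that process collagen fell slightly. Of 16 transcripts from 11 such genes 0 rose and 5 fell (median -0.23, 0 rises and 3 to 5 falls with a library left out, 0 rises and 3 falls by DESeq2). The prolyl hydroxylase phy-2 had 346 and 340.4 CPM in P0 worms, against 399 and 388 CPM in untreated worms (log2 difference -0.20 ± 0.04, adjusted p = 0.0005). The peroxidase mlt-7 had 183 and 185 CPM in P0 worms, against 213 and 227 CPM in untreated worms (log2 difference -0.26 ± 0.05, adjusted p = 0.00065). The dual oxidase bli-3, which supplies it with hydrogen peroxide, had 246 and 259 CPM in P0 worms, against 282 and 296 CPM in untreated worms (log2 difference -0.19 ± 0.04, adjusted p = 0.0015). The maturation factor of that oxidase, doxa-1, fell, at -0.44 ± 0.11. The groups did not overlap for these enzymes, although the differences were small. Astacin metalloproteases of the nas group fell in 7 and rose in 3 of 24 (median -0.19, 0 to 1 rises and 7 falls with a library left out, 1 rise and 7 falls by DESeq2). The astacin nas-7 had 117 and 126 CPM in P0 worms, against 185 and 192 CPM in untreated worms (log2 difference -0.63 ± 0.06, adjusted p = 2.6e-08). The astacin nas-38 had 124 and 137 CPM in P0 worms, against 181 and 182 CPM in untreated worms (log2 difference -0.47 ± 0.07, adjusted p = 4.1e-05). Patched-related genes, membrane proteins of the body surface, fell in 10 and rose in 4 of 24 (median -0.13, 2 to 4 rises and 7 to 9 falls with a library left out, 3 rises and 6 falls by DESeq2). The gene ptr-20 had 102 and 94.7 CPM in P0 worms, against 148 and 149 CPM in untreated worms (log2 difference -0.60 ± 0.06, adjusted p = 7.6e-08). The gene ptr-23, which acts in osmotic balance, had 349 and 347 CPM in P0 worms, against 472 and 465 CPM in untreated worms (log2 difference -0.43 ± 0.04, adjusted p = 3.7e-09). Both stood lower in each P0 library. Against these, ptr-8 had 59.2 and 65.4 CPM in P0 worms, against 15.7 and 16.5 CPM in untreated worms (log2 difference 1.95 ± 0.12, adjusted p = 7.9e-12) and ptr-10 rose by 1.25 ± 0.14. When 1 library was left out, the threshold was not reached by doxa-1 (adjusted p = 0.0848 without P0 replicate 2). There was no DESeq2 call for doxa-1.

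Hedgehog-related genes, whose products are secreted at the same surface, were split evenly, 8 rises and 9 falls of 34 (median -0.05). Opposite to grd-6, grd-3 had 102 and 93.5 CPM in P0 worms, against 23.3 and 27.6 CPM in untreated worms (log2 difference 1.93 ± 0.09, adjusted p = 1.8e-13). The gene grd-10 had 37.5 and 39.3 CPM in P0 worms, against 13.6 and 13.4 CPM in untreated worms (log2 difference 1.5 ± 0.13, adjusted p = 4.7e-09) and wrt-10 rose by 0.98 ± 0.07. Both directions came with clear gaps between the groups. Of 20 transcripts of molting genes 7 rose and 3 fell (median 0.13, 4 to 5 rises and 2 to 3 falls with a library left out), or 4 and 4 with low-density factors. The lipocalin lpr-3 had 306 and 292 CPM in P0 worms, against 181 and 183 CPM in untreated worms (log2 difference 0.72 ± 0.05, adjusted p = 2.1e-10). The gene noah-2, of the outer matrix, had 458 and 438 CPM in P0 worms, against 316 and 289 CPM in untreated worms (log2 difference 0.57 ± 0.05, adjusted p = 7.7e-09). The protease gene nas-36, which acts in shedding the old cuticle, fell, at -0.51 ± 0.10. Cuticlins and zona pellucida genes rose in 4 and fell in 6 of 27 (median -0.05, 3 to 4 rises and 3 to 4 falls with a library left out, 4 rises and 3 falls by DESeq2), with let-653 rising by 1.64 ± 0.31 and cut-4 falling, at -0.46 ± 0.05. Of 9 tested transcripts of heterochronic regulators, which time larval stages, edgeR and DESeq2 called 0, and 1 had an unadjusted p under 0.05. The labels do not give the hour within L4 at which worms were taken, and its part in the results on cuticle and germ line was not tested.

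Germ line genes rose together by modest amounts. Of 27 transcripts of germ line regulators and P granules, 14 rose and 1 fell (median 0.46, 12 to 14 rises and 0 to 1 falls with a library left out, 12 rises and 0 falls by DESeq2). The RNA helicase glh-4 of the P granules had 162 and 187 CPM in P0 worms, against 102 and 109 CPM in untreated worms (log2 difference 0.73 ± 0.07, adjusted p = 1.1e-08). The translational repressor gld-1 had 219 and 243 CPM in P0 worms, against 168 and 165 CPM in untreated worms (log2 difference 0.47 ± 0.06, adjusted p = 1.2e-06). Both P0 libraries stood above both untreated ones. The RNA-binding protein daz-1, needed for oogenesis, had 153 and 157 CPM in P0 worms, against 118 and 105 CPM in untreated worms (log2 difference 0.49 ± 0.06, adjusted p = 1.5e-06). In meiosis 13 of 26 genes rose and 0 fell (median 0.34, 8 to 13 rises and 0 falls with a library left out), although DESeq2 called 7. Synaptonemal complex gene syp-4 had 90.8 and 102 CPM in P0 worms, against 59.8 and 59.5 CPM in untreated worms (log2 difference 0.69 ± 0.11, adjusted p = 5.6e-05). The gene syp-1, another part of that complex, had 76.8 and 71.9 CPM in P0 worms, against 48.5 and 52.9 CPM in untreated worms (log2 difference 0.55 ± 0.10, adjusted p = 0.00037). The gap between the groups was wider than that between replicates for both. The chromosome axis protein htp-3 had 99.6 and 103 CPM in P0 worms, against 82.9 and 67.2 CPM in untreated worms (log2 difference 0.44 ± 0.09, adjusted p = 0.00044), and him-1, of the cohesin complex, rose by 0.29 ± 0.05.

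DNA replication genes rose with them. Of 28 replication and cell cycle genes 16 rose and 1 fell (median 0.34, 15 rises and 0 falls by DESeq2). The replicative helicase subunit mcm-2 had 131 and 125 CPM in P0 worms, against 75.3 and 77.4 CPM in untreated worms (log2 difference 0.74 ± 0.06, adjusted p = 5.7e-09). The helicase subunit mcm-4 had 137 and 139 CPM in P0 worms, against 91.0 and 83.1 CPM in untreated worms (log2 difference 0.66 ± 0.06, adjusted p = 2.7e-08). Replicates were close in both genes. Another subunit, mcm-7, had 142 and 144 CPM in P0 worms, against 97.8 and 102 CPM in untreated worms (log2 difference 0.52 ± 0.06, adjusted p = 4.7e-07). The spindle checkpoint kinase bub-1 had 232 and 231 CPM in P0 worms, against 150.3 and 168 CPM in untreated worms (log2 difference 0.54 ± 0.06, adjusted p = 1.2e-07). The P0 libraries lay above the untreated ones in all 4. Argonautes, which bind small RNAs, rose in 8 and fell in 0 of 17 (median 0.29). The Piwi protein prg-1 had 332 and 321 CPM in P0 worms, against 208 and 229 CPM in untreated worms (log2 difference 0.58 ± 0.05, adjusted p = 2.4e-09). The Argonaute ppw-2 had 274 and 280.4 CPM in P0 worms, against 189.9 and 194 CPM in untreated worms (log2 difference 0.53 ± 0.05, adjusted p = 9.2e-09). The groups were apart for both. Of 17 genes of adenine and histone methylation 4 rose and 0 fell (median -0.02). Beside met-2 these were the germ line chromatin genes mes-4 (0.63 ± 0.07), mes-2 (0.43 ± 0.07) and mes-6 (0.38 ± 0.09). The methylation gene damt-1 itself had 28.2 and 23.7 CPM in P0 worms, against 19.9 and 19.6 CPM in untreated worms, not past the threshold (log2 difference 0.39 ± 0.18, adjusted p = 0.13). Without 1 of the libraries there was no call for mes-6 (adjusted p = 0.0751 without P0 replicate 2).

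Oocyte genes rose, and among sperm genes the major sperm proteins hardly moved. Of 26 eggshell and oocyte genes 16 rose and 0 fell (median 0.54, 9 to 15 rises and 0 falls with a library left out), or 10 and 0 by DESeq2. The chondroitin proteoglycan cpg-2 of the eggshell had 135 and 149 CPM in P0 worms, against 85.0 and 79.7 CPM in untreated worms (log2 difference 0.79 ± 0.07, adjusted p = 3.7e-09). The gene egg-6, counted with this list by its name alone, had 164 and 164 CPM in P0 worms, against 97.8 and 102 CPM in untreated worms (log2 difference 0.72 ± 0.07, adjusted p = 7.7e-08). For both, no P0 library reached down to the untreated ones. Chitin-binding protein gene cbd-1 had 229 and 234 CPM in P0 worms, against 135 and 164 CPM in untreated worms (log2 difference 0.62 ± 0.07, adjusted p = 5.2e-07). Chitin synthase gene chs-1 had 58.2 and 62.3 CPM in P0 worms, against 34.1 and 30.2 CPM in untreated worms (log2 difference 0.91 ± 0.12, adjusted p = 4.6e-06). The P0 libraries stood above the untreated ones in each. Spermatogenesis genes rose in 6 and fell in 0 of 44 (median 0.17, 3 to 5 rises and 0 to 1 falls with a library left out), and DESeq2 called 2. The spermatogenesis list summed to 1291 and 1346 CPM in P0 worms, against 1135 and 1183 CPM in untreated worms. The major sperm proteins summed to 1241 and 1216 CPM in P0 worms, against 1224 and 1251 CPM in untreated worms, with 0 calls by edgeR or DESeq2 among 30 (median -0.03) and 1 unadjusted p under 0.05. Among the innexins, which form gap junctions, 3 of the gonad rose. The somatic gonad innexin inx-9 had 70.9 and 82.2 CPM in P0 worms, against 28.3 and 28.1 CPM in untreated worms (log2 difference 1.44 ± 0.10, adjusted p = 2.8e-10). Its partner inx-8 had 64.1 and 56.3 CPM in P0 worms, against 43.0 and 42.9 CPM in untreated worms (log2 difference 0.48 ± 0.11, adjusted p = 0.0016). The germ cell innexin inx-21 had 29.2 and 36.9 CPM in P0 worms, against 14.9 and 16.5 CPM in untreated worms (log2 difference 1.07 ± 0.16, adjusted p = 2.5e-05). They were 3 of the 5 rises among 34 tetraspanins and innexins, where 0 fell (median 0.05). The share of rises in that list was near the 13.0% of all tested transcripts.

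**Figure D4:**
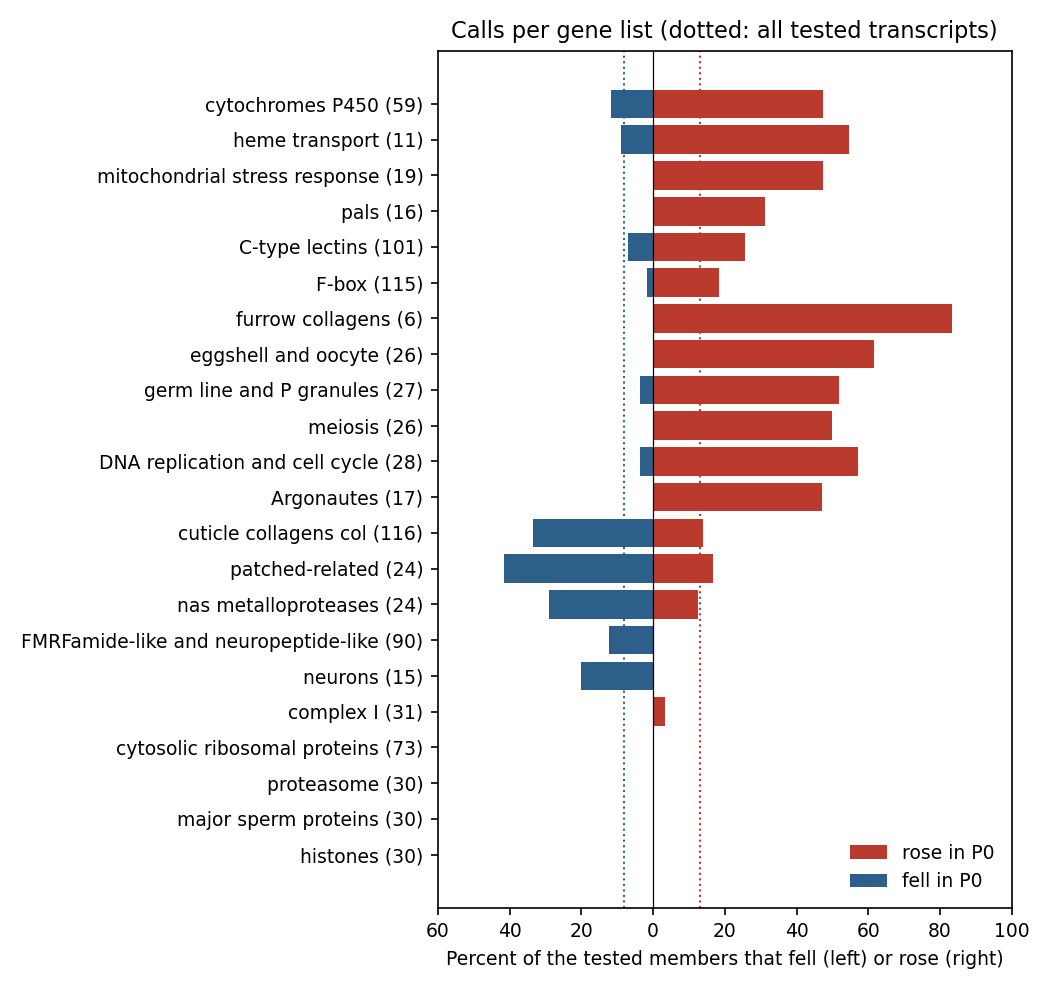
Percent of the tested members of 22 gene lists that fell in P0 worms (bars to the left) or rose (bars to the right), with the number tested beside each name and dotted lines at 8.14% and 13.0%, the shares among all tested transcripts. Germ line, oocyte and replication lists have bars of about the same length to the right, and the neuropeptide and neuron lists have bars to the left only.

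A few neuronal transcripts fell and none of the listed ones rose. Of 90 neuropeptide genes 0 rose and 11 fell (median -0.16, 0 rises and 3 to 6 falls with a library left out), or 19 falls with low-density factors and 1 by DESeq2. The gene nlp-10 had 90.8 and 87.2 CPM in P0 worms, against 113 and 109 CPM in untreated worms (log2 difference -0.32 ± 0.06, adjusted p = 0.00044). The gene flp-7 had 69.3 and 63.8 CPM in P0 worms, against 80.0 and 83.5 CPM in untreated worms (log2 difference -0.30 ± 0.08, adjusted p = 0.011). The gene nlp-15 had 36.2 and 41.0 CPM in P0 worms, against 48.3 and 53.8 CPM in untreated worms (log2 difference -0.40 ± 0.11, adjusted p = 0.011). All 3 were lower in both P0 libraries. The epidermal antimicrobial peptide nlp-30, counted with this list by its name, had 48.6 and 49.6 CPM in P0 worms, against 63.5 and 64.6 CPM in untreated worms (log2 difference -0.38 ± 0.09, adjusted p = 0.0033). Each of these falls was under 1.5-fold. Of 15 general neuron markers 0 rose and 3 fell (median -0.27, 0 rises and 1 to 4 falls with a library left out). The vesicular GABA transporter unc-47 had 6.21 and 5.75 CPM in P0 worms, against 12.9 and 12.7 CPM in untreated worms (log2 difference -1.09 ± 0.28, adjusted p = 0.0063). Synaptogyrin gene sng-1 had 14.5 and 12.2 CPM in P0 worms, against 23.3 and 24.3 CPM in untreated worms (log2 difference -0.84 ± 0.20, adjusted p = 0.0035). The gene ida-1, of dense core vesicles, had 422 and 417 CPM in P0 worms, against 489 and 485 CPM in untreated worms (log2 difference -0.21 ± 0.04, adjusted p = 7.7e-05). The libraries of the groups did not overlap in these markers. Summed, the neuron markers reached 1250.0 and 1214 CPM in P0 worms, against 1379 and 1392 CPM in untreated worms, and the same markers include egl-21, a neuropeptide-processing enzyme that was not called (-0.12 ± 0.05) and passed with library size as the only scaling (adjusted p = 0.0219). Lost without 1 library were the calls of flp-7 (adjusted p = 0.136 without P0 replicate 2 and 0.0945 without untreated replicate 2), nlp-15 (adjusted p = 0.131 without P0 replicate 1 and 0.144 without untreated replicate 2), unc-47 (adjusted p = 0.0615 without P0 replicate 2) and sng-1 (adjusted p = 0.0601 without P0 replicate 2). With DESeq2 there was no call for flp-7, nlp-15 or nlp-30.

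Markers of other tissues moved in both directions. Body wall muscle markers summed to 6493 and 6180.0 CPM in P0 worms, against 6720.0 and 6310.0 CPM in untreated worms, with 0 rises and 1 fall among 17 (median -0.0047, 0 rises and 0 to 1 falls with a library left out, 0 rises and 0 falls by DESeq2). Intestinal markers summed to 6139 and 5858 CPM in P0 worms, against 5901 and 5574 CPM in untreated worms, with 6 rises and 2 falls among 21 (median 0.01). The gut esterase ges-1 had 347 and 349 CPM in P0 worms, against 282 and 273 CPM in untreated worms (log2 difference 0.33 ± 0.04, adjusted p = 1.2e-06). Cathepsin B-like proteases cpr-5 (0.48 ± 0.05) and cpr-4 (0.47 ± 0.06) rose, while the intermediate filament ifd-2 fell (-0.33 ± 0.05). In intestine and muscle the sums of the groups were about as far apart as those of replicates. Pharynx markers summed to 663 and 694 CPM in P0 worms, against 575 and 616 CPM in untreated worms, with 3 rises and 0 falls among 12 (median 0.15). The pharyngeal myosin myo-1 had 173 and 170.2 CPM in P0 worms, against 126 and 132 CPM in untreated worms (log2 difference 0.41 ± 0.08, adjusted p = 0.00035). It was higher in both P0 libraries. Epidermal markers summed to 669.8 and 708 CPM in P0 worms, against 580.1 and 584 CPM in untreated worms, with 4 rises and 3 falls among 13 (median 0.0041, 3 to 5 rises and 0 to 1 falls with a library left out, 4 rises and 0 falls by DESeq2). Germ line and P granule transcripts, for comparison, summed to 2498 and 2500.0 CPM in P0 worms, against 2016 and 1943 CPM in untreated worms. The part of tissue proportions in the differences above was not tested. Of 99 chemoreceptor transcripts, most of them low, 8 rose and 11 fell (median -0.17, 4 to 7 rises and 5 to 6 falls with a library left out, 5 rises and 4 falls by DESeq2). Among them srdh-1 had 325 and 309 CPM in P0 worms, against 161 and 149 CPM in untreated worms (log2 difference 1.03 ± 0.05, adjusted p = 1.3e-13).

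Smaller lists moved in single members. Of 46 transthyretin-like genes 3 rose and 2 fell (median 0.01, 2 to 3 rises and 1 to 2 falls with a library left out, 3 rises and 0 falls by DESeq2). The gene ttr-21 had 22 counts in P0 worms and 0 in untreated worms, at least 7.34-fold higher by the floor used above. Among 44 transcripts of abu and pqn genes, of which many act in the pharyngeal cuticle, 6 rose and 5 fell (median -0.05, 3 to 4 rises and 2 to 5 falls with a library left out, 2 rises and 3 falls by DESeq2). The gene pqn-37 had 51.7 and 47.2 CPM in P0 worms, against 78.9 and 93.9 CPM in untreated worms (log2 difference -0.81 ± 0.10, adjusted p = 7.7e-07). In the basement membrane list 1 of 15 rose and 3 fell (median -0.11, 1 to 2 rises and 1 fall with a library left out, 1 rise and 1 fall by DESeq2). The rise was that of lam-3, with 30.0 and 47.7 CPM in P0 worms, against 14.7 and 15.8 CPM in untreated worms (log2 difference 1.36 ± 0.20, adjusted p = 2.1e-05). The falls were those of the laminins lam-1 (-0.15 ± 0.03) and lam-2 (-0.11 ± 0.03) and the collagen IV emb-9 (-0.16 ± 0.05), far more abundant transcripts than lam-3. Of 6 water channels 1 rose and 1 fell (1 rise and 0 to 1 falls with a library left out, 1 rise and 0 falls by DESeq2). The rise was that of aqp-7, with 237 and 234 CPM in P0 worms, against 165 and 164 CPM in untreated worms (log2 difference 0.52 ± 0.05, adjusted p = 3.9e-08). The growth factor dbl-1, which sets body size, had 46.5 and 46.7 CPM in P0 worms, against 56.1 and 64.6 CPM in untreated worms (log2 difference -0.38 ± 0.10, adjusted p = 0.011). In its list of signalling and dauer hormone genes 2 rose and 3 fell of 14, with 0 to 2 rises and 1 to 2 falls with a library left out, 0 rises and 1 fall by DESeq2. The nuclear receptor nhr-68, of the propionate pathway, fell (-0.18 ± 0.05), the 1 call among 19 genes of its list, where DESeq2 made none. Leaving out 1 library ended the calls of ttr-21 (adjusted p = 0.0807 without P0 replicate 2), lam-2 (adjusted p between 0.0582 and 0.149 over the 4 libraries), emb-9 (adjusted p between 0.107 and 0.125 over the 4 libraries), dbl-1 (adjusted p = 0.0552 without P0 replicate 1, 0.0589 without P0 replicate 2 and 0.180 without untreated replicate 2) and nhr-68 (adjusted p = 0.162 without P0 replicate 1 and 0.10 without untreated replicate 2). DESeq2 did not call lam-2, emb-9, dbl-1 or nhr-68. Also not called within the groups compared was lam-2 (adjusted p = 0.0520).

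Several large groups had few or no calls. Among 73 cytosolic ribosomal proteins, 30 proteasome subunits and 30 histone genes, edgeR and DESeq2 called 0, and 2, 0 and 2 of them had an unadjusted p under 0.05, where 3951 of all tested transcripts did. Their medians were -0.01, -0.03 and 0.04, and the ribosomal list had a median density of 1.38 counts per nucleotide, at the ceiling. Lysosomal proteases rose in 7 and fell in 0 of 21 (median 0.08). The aspartic protease asp-8 had 476 and 452 CPM in P0 worms, against 333 and 304 CPM in untreated worms (log2 difference 0.54 ± 0.05, adjusted p = 7.2e-09). Vacuolar ATPase genes rose in 2 of 19 (1 to 2 rises and 0 falls with a library left out, 1 rise and 0 falls by DESeq2) and autophagy genes in 1 of 21, where 1 fell (0 to 1 rises and 0 to 1 falls with a library left out, 0 rises and 0 falls by DESeq2). In the endoplasmic reticulum stress list, 1 rose and 2 fell of 18 (1 rise and 1 fall with a library left out, 1 rise and 1 fall by DESeq2). Its chaperone hsp-4 had 277 and 258 CPM in P0 worms, against 283 and 270.4 CPM in untreated worms (log2 difference -0.05 ± 0.04, adjusted p = 0.52). The stress kinase pek-1 rose by 0.25 ± 0.05. Of 13 cytosolic heat shock genes 2 rose and 1 fell (1 to 2 rises and 1 fall with a library left out, 1 rise and 1 fall by DESeq2), the last being hsp-70, with 115 and 101 CPM in P0 worms, against 136 and 144 CPM in untreated worms (log2 difference -0.38 ± 0.07, adjusted p = 0.00014). Genes of insulin signalling and its factor DAF-16 rose in 6 and fell in 2 of 21 (median 0.04, 5 to 6 rises and 1 to 2 falls with a library left out, 5 rises and 1 fall by DESeq2), led by mtl-1 and sod-3. The mitochondrial transhydrogenase nnt-1 had 275 and 270.1 CPM in P0 worms, against 203 and 223 CPM in untreated worms (log2 difference 0.35 ± 0.05, adjusted p = 3.8e-06). Myo-inositol transporter gene hmit-1.1, of the osmotic response, fell, with 197 and 208 CPM in P0 worms, against 277 and 286 CPM in untreated worms (log2 difference -0.48 ± 0.05, adjusted p = 5.3e-08), and 5 of 13 genes of that list fell in all, against 2 rises (0 to 1 rises and 3 to 4 falls with a library left out, 1 rise and 3 falls by DESeq2).

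The calls were spread unevenly over the chromosomes. Genes on the X chromosome fell more often than they rose, 14.8% against 8.03% of 1718 tested, with a median log2 difference of -0.0941. On the 5 autosomes between 6.33% and 8.33% fell and between 12.8% and 15.7% rose, with medians between 0.0162 and 0.0243. As background, the X chromosome holds few genes active in the germ line. Germ line and P granule transcripts summed higher in the P0 libraries, as given above, and their part in this difference was not tested. Among changes of 2-fold or more, X did not stand apart in this way, with 49 rises (2.85%) and 17 falls (0.990%). Chromosome V held 136 of the 384 genes that rose at least 2-fold, 5.74% of its tested genes, while chromosomes I and III had the lowest shares, 1.84% and 1.98%.

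**Figure D5:**
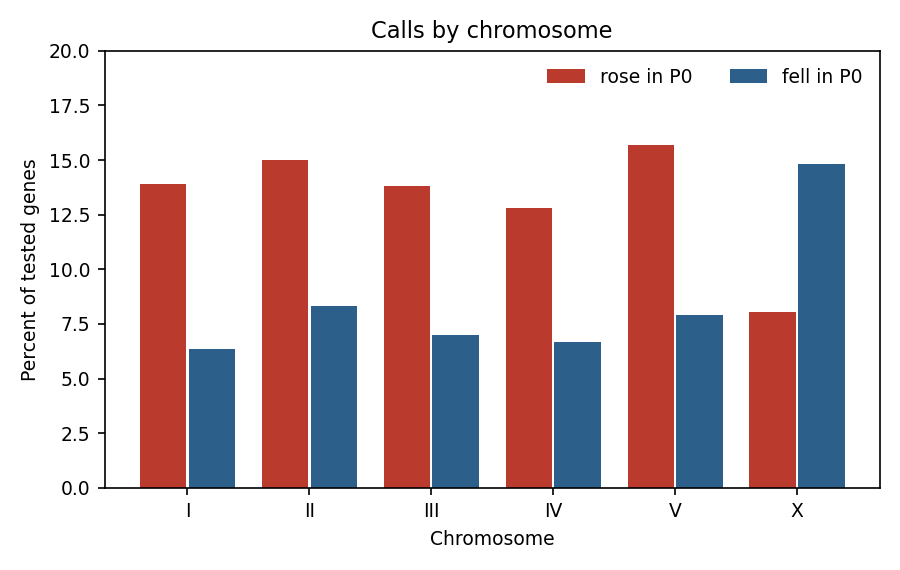
Percent of the tested genes on each chromosome that rose (red) or fell (blue) in P0 worms. The X chromosome has 8.03% rises and 14.8% falls, while each autosome has at least 12.8% rises and at most 8.33% falls.

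Some genes that rose at least 2-fold were neighbours among the tested genes. Of 11994 genes tested on a chromosome 384 rose in this way. Of these, 90 stood in 40 runs of at least 2 neighbouring tested genes, and 7 runs held at least 3. Untested genes could lie between them, as in the run of nhr-265 and gmd-2, which spanned 14 protein-coding genes. In the smaller set of 83 genes that fell at least 2-fold there was 1 run of 2 genes. How many runs sets of these sizes would hold by chance was not tested. On chromosome V, nhr-155, C14C6.3, gtnt-7 and gtnt-8 formed a run with log2 differences between 1.89 and 3.13. The gene gtnt-7 had 40.9 and 47.2 CPM in P0 worms, against 11.5 and 12.3 CPM in untreated worms (log2 difference 1.89 ± 0.17, adjusted p = 1.1e-08). The gene gtnt-8 had 24.3 and 20.9 CPM in P0 worms, against 4.98 and 3.07 CPM in untreated worms (log2 difference 2.49 ± 0.26, adjusted p = 1.1e-07). A second run on V held K06H6.2, K06H6.1, gtnt-57 and gtnt-56. K06H6.2 had 80.7 and 75.3 CPM in P0 worms, against 32.3 and 35.6 CPM in untreated worms (log2 difference 1.19 ± 0.10, adjusted p = 4.3e-09). On chromosome III, B0244.7, B0244.17, B0244.10 and B0244.6 rose. B0244.17 had 16.8 and 15.6 CPM in P0 worms, against 1.57 and 3.78 CPM in untreated worms (log2 difference 2.55 ± 0.37, adjusted p = 1.3e-05). The P450 genes cyp-13A5, cyp-13A6 and cyp-13A8 lay together on chromosome II. Here cyp-13A6 had 16.6 and 22.5 CPM in P0 worms, against 3.41 and 3.07 CPM in untreated worms (log2 difference 2.59 ± 0.24, adjusted p = 1.9e-08). Runs of 3 genes on V were ttr-26, srg-34 and Y51A2D.21, and nhr-112, fbxa-127 and srz-99. Neighbours of this kind are often copies of each other, and how reads shared by near-identical copies were counted is not given in the sources used here.

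Where a gene had several transcripts, they could differ. Of 125 genes with 2 or more tested transcripts, 2 had transcripts called in opposite directions. For the poly(A) polymerase gene gld-2, of the germ line, a transcript rose with 20.9 and 28.3 CPM in P0 worms, against 8.65 and 18.2 CPM in untreated worms (log2 difference 0.86 ± 0.26, adjusted p = 0.019). Another gld-2 transcript fell with 28.4 and 30.7 CPM in P0 worms, against 44.6 and 41.8 CPM in untreated worms (log2 difference -0.54 ± 0.16, adjusted p = 0.017). The third was not called. A second transcript of unc-44 rose, with 116 and 115 CPM in P0 worms against 101 and 97.0 CPM in untreated worms (log2 difference 0.23 ± 0.06, adjusted p = 0.0084), opposite to the unc-44 transcript given above. How reads common to the transcripts of 1 gene were assigned is not given in the sources used here.

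The authors' deposited table for this comparison lists 6606 transcripts, all with log2 fold changes above 0, and 816 of them have an adjusted p under 0.05. All 816 were among the 1626 that rose in the edgeR fit, which called 810 further rises.

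The effect of the drug differed between the genotypes for many transcripts. The interaction, the log2 effect of the drug in wild type minus that with the damt-1 label, passed the threshold for 2720 of 12386 tested (22.0%). It was tested only for transcripts listed for P0 in both genotypes. F22B3.7 and col-143, which rose in wild type, were not listed for damt-1 P0 and have no interaction value. Both stood at 0 CPM with the damt-1 label, in P0 and untreated worms, where unlisted transcripts were set to 0. In the libraries labelled damt-1 the damt-1 transcript itself was not lower, at 19.4 ± 3.44 CPM without the drug, against 19.8 ± 0.247 CPM in wild type (SD, n = 2 each), so its level does not tell the genotypes apart, and the allele is not named in the labels. With the drug it was 17.2 ± 1.06 CPM in the P0 libraries labelled damt-1 and 26.0 ± 3.20 CPM in wild type P0 worms. Genes named here were also called in wild type P0 and reached 10 CPM in a wild type group. Scarcer transcripts had larger fitted interactions, up to 6.94 ± 1.12 for F47H4.2, with ttr-21, ugt-40, str-124 and B0244.7 also among the highest, and down to -11.21 ± 0.89 for abu-7. At such levels the size of a fitted value depends on the prior count. The lipid gene acs-2 had 537 ± 13.0 CPM in P0 worms and 13.4 ± 1.46 CPM in untreated worms in wild type. With the damt-1 label there were 70.0 ± 4.83 CPM in P0 worms and 64.0 ± 2.36 CPM in untreated worms (interaction 5.19 ± 0.15, adjusted p = 3.6e-18). The difference with the label was thus small beside that in wild type. The lectin clec-17 had 138 ± 3.12 CPM in P0 worms and 1.38 ± 0.279 CPM in untreated worms in wild type. Libraries labelled damt-1 had 25.2 ± 0.377 CPM in P0 worms and 8.44 ± 2.40 CPM in untreated worms (interaction 5.06 ± 0.37, adjusted p = 2.1e-10). With the label the P0 mean also lay above the untreated mean, by a smaller ratio. Metallothionein mtl-1 had 38.7 ± 5.95 CPM in P0 worms and 1.19 ± 1.32 CPM in untreated worms in wild type. Under the damt-1 label the values were 1.43 ± 0.607 CPM in P0 worms and 2.36 ± 0.474 CPM in untreated worms (interaction 5.65 ± 0.75, adjusted p = 3.1e-06). In all 3 the wild type P0 level stood above each of the other 3 groups. The heme gene hrg-2 had 24.3 ± 4.33 CPM in P0 worms and 0.616 ± 0.130 CPM in untreated worms in wild type. With the damt-1 label there were 3.86 ± 0.199 CPM in P0 worms and 3.77 ± 0.758 CPM in untreated worms (interaction 5.20 ± 0.65, adjusted p = 1.2e-06). Wild type P0 again stood highest. The gene drd-50 had 20.3 ± 1.97 CPM in P0 worms and 1.48 ± 0.241 CPM in untreated worms in wild type. Libraries labelled damt-1 had 1.55 ± 0.430 CPM in P0 worms and 3.76 ± 1.5 CPM in untreated worms (interaction 5.02 ± 0.59, adjusted p = 4.8e-07).

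At the other end stood cuticle and related genes that were almost absent from the untreated libraries labelled damt-1. The collagen col-19 had 167 ± 5.78 CPM in P0 worms and 241 ± 8.86 CPM in untreated worms in wild type. Under the damt-1 label the values were 129.6 ± 0.629 CPM in P0 worms and 0.523 ± 0.0230 CPM in untreated worms (interaction -8.40 ± 0.21, adjusted p = 6.1e-19). The untreated libraries with the label held almost none of it. For col-119 there were 42.5 ± 0.532 CPM in P0 worms and 84.8 ± 3.14 CPM in untreated worms in wild type. With the damt-1 label there were 22.8 ± 6.67 CPM in P0 worms and 0.127 ± 0.179 CPM in untreated worms (interaction -8.14 ± 0.53, adjusted p = 2.4e-11). The same held for this second collagen. The gene pqn-2, named for a glutamine- and asparagine-rich product, had 12.8 ± 2.31 CPM in P0 worms and 19.3 ± 0.915 CPM in untreated worms in wild type, a fall that was no longer called without a count filter (adjusted p = 0.0504). Libraries labelled damt-1 had 25.4 ± 1.46 CPM in P0 worms and 0.262 ± 0.0115 CPM in untreated worms (interaction -7.03 ± 0.50, adjusted p = 1.2e-10). In all 3 the wild type level was lower with the drug, while the level labelled damt-1 was higher with it. The collagen col-137 had 39.4 ± 2.28 CPM in P0 worms and 82.5 ± 5.07 CPM in untreated worms in wild type. Under the damt-1 label the values were 57.3 ± 4.83 CPM in P0 worms and 0 CPM in untreated worms. It was absent from the untreated libraries with the label. The abu-1 gene had 9.82 ± 0.353 CPM in P0 worms and 20.5 ± 1.01 CPM in untreated worms in wild type. With the damt-1 label there were 32.7 ± 0.786 CPM in P0 worms and 0 CPM in untreated worms. Both had 0 counts in the untreated libraries labelled damt-1, so their fitted interactions of -11.89 and -11.07 depend on the prior count. The collagen col-19 is known as an adult cuticle collagen, and the part of the untreated libraries labelled damt-1 in these interactions was not tested. When 1 library was left out, the threshold was not reached by pqn-2 (adjusted p between 0.050 and 0.304 over the 4 libraries), for P0 against untreated in wild type. There was no DESeq2 call for pqn-2. Also not called without a count filter was pqn-2 (adjusted p = 0.0504).

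Wild type worms labelled F1 and F2 were set against P0 directly, without the untreated libraries. Values are means with the SD of 2 libraries. In F1, 2798 of 12495 transcripts differed from P0 (22.4%), and in F2, 2809 of 12487 (22.5%). Without P0 replicate 1 these counts were 1771 and 1851. The genes named were called in P0 against untreated and reached 10 CPM in 1 of those groups. Scarcer ones had larger fitted differences, higher for Y70C5C.1 (4.08 ± 1.02 in F1 and 4.76 ± 0.944 in F2), gpx-3, F07C4.6, Y110A2AL.9 and Y116A8C.37 in F1 and fipr-7 and Y73F4A.2 in F2, and lower for col-7 (-4.89 ± 0.819 in F1) and B0391.14, with the same dependence on the prior count. The laminin alpha chain lam-3 of basement membranes had 183 ± 12.9 CPM in F1 worms, against 38.8 ± 12.5 CPM in P0 worms (log2 difference 2.23 ± 0.11, adjusted p = 3.2e-12). It had 174 ± 1.33 CPM in F2 worms, against 38.8 ± 12.5 CPM in P0 worms (log2 difference 2.15 ± 0.12, adjusted p = 9.4e-12). Both later labels thus stood above P0. F41G3.10 had 83.9 ± 11.1 CPM in F1 worms, against 23.1 ± 0.187 CPM in P0 worms (log2 difference 1.86 ± 0.13, adjusted p = 3.9e-10). The gene lron-1 had 53.1 ± 4.36 CPM in F1 worms, against 14.1 ± 1.64 CPM in P0 worms (log2 difference 1.91 ± 0.20, adjusted p = 2.3e-07). Both groups were apart for these 3 genes. For dhsl-4 there were 36.6 ± 1.46 CPM in F1 worms, against 10.7 ± 1.28 CPM in P0 worms (log2 difference 1.77 ± 0.21, adjusted p = 1.4e-06). The pharyngeal gland gene phat-3 had 54.3 ± 6.92 CPM in F1 worms, against 16.1 ± 3.15 CPM in P0 worms (log2 difference 1.75 ± 0.16, adjusted p = 2.4e-08). All 5 genes had risen in P0 worms, and they stood higher again in F1 worms. F35D2.3, by contrast, had fallen in P0 worms, a call lost by DESeq2 and in several other fits (log2 difference -0.39 without P0 replicate 2). It stood above P0 in F1 worms, with 28.1 ± 2.59 CPM (log2 difference 1.34 ± 0.21, adjusted p = 3.9e-05). In F2 worms it had 35.5 ± 0.331 CPM (log2 difference 1.68 ± 0.20, adjusted p = 1.2e-06). Lower in F1 than in P0 was the collagen col-137, with 16.7 ± 2.30 CPM in F1 worms, against 39.4 ± 2.28 CPM in P0 worms (log2 difference -1.23 ± 0.14, adjusted p = 7.5e-07). E03H4.4 had 16.1 ± 0.340 CPM in F1 worms, against 36.1 ± 5.28 CPM in P0 worms (log2 difference -1.16 ± 0.18, adjusted p = 4.9e-05). B0334.13 had 1.89 ± 0.216 CPM in F1 worms, against 5.71 ± 0.397 CPM in P0 worms (log2 difference -1.58 ± 0.43, adjusted p = 0.0089). These 3 had fallen in P0 worms and were lower again in F1 worms. C06E8.5 had 5.56 ± 0.182 CPM in F1 worms, against 13.7 ± 2.25 CPM in P0 worms (log2 difference -1.31 ± 0.27, adjusted p = 0.00093). Among the transcripts lower in F2 than in P0, C43F9.11 had 4.57 ± 1.55 CPM in F2 worms (log2 difference -1.51 ± 0.32, adjusted p = 0.0011). Its fall in P0 worms lost its call without P0 replicate 2 (log2 difference -0.87) and without untreated replicate 1 (-0.79). The gene pqn-2 had 5.20 ± 0.722 CPM in F2 worms, against 12.8 ± 2.31 CPM in P0 worms (log2 difference -1.30 ± 0.26, adjusted p = 0.00073). The lectin clec-246 had 4.08 ± 0.157 CPM in F2 worms, against 9.77 ± 2.11 CPM in P0 worms (log2 difference -1.26 ± 0.36, adjusted p = 0.014). Of the genes lower in F1 or F2, C06E8.5 had risen in P0 worms (0.72 ± 0.25) and the others had fallen. For acs-2, the largest gain in P0 worms, there were 546 ± 12.2 CPM in F1 worms, against 537 ± 13.0 CPM in P0 worms (log2 difference 0.02 ± 0.04, adjusted p = 0.72). Without 1 of the libraries there was no call for fipr-7 (adjusted p = 0.0696 without P0 replicate 1, 0.0831 without P0 replicate 2 and 0.124 without untreated replicate 1), phat-3 (adjusted p = 0.118 without P0 replicate 1), C06E8.5 (adjusted p = 0.301 without P0 replicate 2 and 0.404 without untreated replicate 2) or clec-246 (adjusted p = 0.179 without P0 replicate 1 and 0.389 without untreated replicate 2), all for P0 against untreated in wild type. With DESeq2 there was no call for C06E8.5 or clec-246. Also not called with library size as the only scaling was C06E8.5 (adjusted p = 0.0501). Also not called within the groups compared was C06E8.5 (adjusted p = 0.0709).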

How the data were processed

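Total RNA of whole L4 worms was sequenced in 16 libraries, 2 for each of 8 groups, and the comparison uses the 2 wild type P0 and 2 wild type untreated libraries. The deposited values are raw counts per RefSeq transcript, whole numbers with different totals per library. The submitters' processing notes name, without roles, DESeq2 1.20.0 in R 3.5.0, HTSeq 0.9.1, HISAT2 2.0.5, SAMtools 1.3.1, Trimmomatic 0.35 and the genome build ce10. Strand setting, annotation, and the handling of duplicate reads and of reads shared by overlapping or near-identical genes are not given in the sources used here, so values of antisense pairs and close paralogs are uncertain. In the authors' deposited comparison table the log2 values are fold changes and the adjusted p-values are those of DESeq2, per the file headers. That table was only counted against the calls made here.

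Counts were fitted with edgeR 4.0.16 in R 4.3.3 (TMM factors, robust quasi-likelihood, a minimum count of 10) with 1 mean per group over all 16 libraries. The 16 libraries held between 3541390 and 4365451 counts. A transcript not listed in a table was set to 0 there, which touched 200 of the 12498 tested. What edgeR calls the biological coefficient of variation, from its common dispersion, was 2.18%. It measures the spread between replicate libraries, which may be technical. Names and chromosomes came from a RefSeq table and spliced lengths from an Ensembl annotation of a later build, so no coordinates were used, and no promoter or genome sequences were used here. The 24 columns of the comparison tables with values per sample were not used.

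The genes named are the 20 largest rises and 20 largest falls by log2 difference and the 15 of each by CPM difference (groups not overlapping, at least 10 CPM in the higher group), up to 4 members of each list by adjusted p, markers of stress and treatment (hsp-16.2 among them was not tested), the longest runs of neighbours, genes with opposite transcripts, and the 5 largest of each further contrast in each direction among transcripts called in P0 against untreated. For the values given in full in those contrasts a minimum of 10 CPM in P0 or untreated worms was added after the values were seen, and scarcer transcripts are named without their levels. List counts are of transcripts, and 19 lists hold several transcripts of some gene. A few list members beyond these were named after their values were seen. Members and lists were chosen with earlier results of these data known. Alternatives were DESeq2 1.42.0, other scaling factors and count filters, the groups compared alone, a block for the library number, and leaving out each library. On simulated counts with 12184 unchanged transcripts the edgeR fit called 12 of them and found 23, 37, 43 and 49 of 50 changed by 1.25-, 1.5-, 2- and 4-fold. These counts were drawn with the spread that the same fit had estimated, without the density ceiling, and the scarcest transcripts were not changed. They therefore cannot show how many calls in the real data are false. Counting intervals cover counting error only.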

Additional observations from a re-analysis of the deposited data

Results flagged for a closer look

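For 10 transcripts the effect of antimycin in P0 differed between wild type and the libraries labelled damt-1 by edgeR's interaction term with Benjamini-Hochberg adjustment, and they were the 5 largest such differences in each direction among transcripts called in wild type and at 10 CPM or more in a wild type group. The wild type call of pqn-2 was close to the threshold (adjusted p = 0.0445). Given as the log2 effect in wild type minus that with the damt-1 label, the difference was 5.65 for the metallothionein gene mtl-1, 5.20 for the heme gene hrg-2, 5.19 for the lipid gene acs-2, 5.06 for the lectin clec-17 and 5.02 for drd-50. All 5 rose in wild type. With the damt-1 label clec-17 also rose, by 1.57 ± 0.19. There acs-2, hrg-2, mtl-1 and drd-50 were not called, with log2 differences of 0.13, 0.03, -0.72 and -1.28. In the other direction the difference between the genotypes was -11.89 for the collagen col-137, -11.07 for abu-1, -8.40 for the adult collagen col-19, -8.14 for the collagen col-119 and -7.03 for pqn-2. These 5 were lower with the drug in wild type and higher with it under the damt-1 label, where the untreated libraries held 0 counts of col-137 and abu-1, so that the fitted values of this pair depend on the prior count.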

How the results depend on the processing

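No call changed direction under any alternative run among the 433 named genes followed through them. Genes with several tested transcripts, such as gld-2 and unc-44, were not followed in this way. Nor were genes named only in runs of neighbours, such as gtnt-7. DESeq2 called 1493 transcripts in P0 against untreated in place of 2643 (1036 rises and 457 falls), 1737 in the interaction, 1348 in F1 against P0 and 1423 in F2 against P0, and 57 of 433 named genes lost their call. Leaving out a library gave 1139 to 1316 rises and 654 to 688 falls, 1771 to 1919 calls in F1 against P0 and 1851 to 1952 in F2 against P0, and ended 35 to 55 calls of named genes. A group left with 1 library is assumed to vary like the others. RLE factors gave 1620 rises and 1012 falls, and library size alone 1486 and 1195 (55.4% rises). Low-density factors gave 1299 and 1261 (50.7% rises) and ended 21 calls. Counts without a filter, with a minimum of 10 CPM and within the groups compared ranged between 2632 and 2728 in all. The labels do not say whether same-numbered libraries were paired. The deviations of same-numbered P0 and untreated libraries had a correlation of 0.0474 across transcripts, and between -0.0974 and 0.0609 over the 28 pairs of groups. A low correlation over all transcripts cannot tell whether libraries were handled in pairs. With the replicate block there were 1610 rises and 982 falls, 2592 calls in all, and the calls of pqn-2 (adjusted p = 0.0506) and F35D2.3 (0.0574) were lost. With 2 libraries a group, small changes of scarce transcripts were not detectable, and dense transcripts sit at a ceiling whose cause was not tested.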
